A study of Homo sapiens with 4 samples.

Results

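The genes described here encode 47 enzymes of central carbon metabolism: 19 of glycolysis, 5 of the pentose phosphate pathway, 15 of the tricarboxylic acid (TCA) cycle, 4 subunits of pyruvate dehydrogenase and 4 branch enzymes that feed or drain the cycle. They were taken by gene name from a list of pathway enzymes. Of the 47, 42 had at least 1 cytidine position in the deposited tables, and together they held 185 of the 18336 distinct position and gene pairs of the series. The cells were LX-2, an established line of human hepatic stellate cells labelled wild type. The groups were untreated cells (control, 2 libraries) and cells treated with recombinant human TGF-β1 at 5 ng/ml for 24 h (2 libraries), labelled as biological replicates. In all libraries RNA was reacted with sodium borohydride, which reduces N4-acetylcytidine (ac4C) so that reverse transcriptase can misread it. The authors deposited 1 table per group, and no group of the labels lacks borohydride or the acetyltransferase NAT10, so whether a listed cytidine mismatch marks ac4C was not tested.

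Each listed position has 1 value per group, the mismatch difference, printed in percent, and 1 deposited p-value. Neither depth nor values per library are in these tables. No value therefore has a replicate error, and no difference between the groups could be set against the spread between cultures. Intervals are 95% Wilson intervals that cover counting error only and take positions as independent, which positions of the same gene may not be. Over all genes the control table held 8298 position and gene pairs, and 12076 were listed after TGF-β1, a ratio of 1.46 (1.42 to 1.50). Of 15 stellate markers 5 were listed in control and 9 after TGF-β1, with 12 and 40 positions. The other 6, COL1A2, HGF, NGFR, RELN, LRAT and DES, were in neither table. All hepatocyte and endothelial markers tested were unlisted, while the macrophage marker CD68 had 3 and 2 positions and the cholangiocyte marker SOX9 had 1 and 0. The other 3 macrophage markers (PTPRC, CD14 and CD163) and the other 3 cholangiocyte markers (KRT19, KRT7 and EPCAM) were unlisted.

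Glycolysis splits glucose into pyruvate in the cytosol. Its preparatory steps spend ATP to make triose phosphates, and its later steps from glyceraldehyde phosphate to pyruvate recover ATP. The pentose phosphate pathway draws glucose phosphate off to make NADPH and ribose, and returns sugars to glycolysis through transketolase and transaldolase. Pyruvate dehydrogenase converts pyruvate inside mitochondria to acetyl-CoA, which the TCA cycle oxidises. Stellate cells are known to raise glycolysis when they become myofibroblasts.

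The sequence around a listed position could be read for 4 positions of 3 enzymes, since those lie in the RefSeq window of 300 bases around a transcript start (GRCh38.p14), and 46 of the 47 enzymes have a window. They are shown with 10 bases on each side, 5′ to 3′ on the transcript strand, with the listed cytidine in capitals, because they show the base that the tables count and its neighbours.
LDHB, control only, chr12:21657816-21657836: gagccggcgcCggaggagacg
PDHB, TGF-β1 only, chr3:58433807-58433827: atagaggacaCgaccaagatg
ACLY, TGF-β1 only, chr17:41918910-41918930: cggggttcgtCgggcctgtgg
ACLY, TGF-β1 only, chr17:41918947-41918967: cgggaagctaCcggctgctgg

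All 4 lie on the minus strand in 5′UTRs. The LDHB cytidine stands 16 bases past the start and had 4.04% in control. That of PDHB stands 15 bases past the start and had 14.3% after TGF-β1. Those of ACLY stand 31 bases past and 6 bases before the same start, within the 5′UTR of transcripts that begin further upstream for the latter, and had 10.8% and 9.55%. Only the LDHB cytidine is the middle base of CCG, a context known from ac4C in ribosomal RNA. All listed positions from a start site on with both neighbours in a window were counted. Of these, 12.6% of 103 in control (7.53 to 20.4) and 10.8% of 158 after TGF-β1 (6.83 to 16.6) were the middle base of CCG. Of all cytidines in that stretch of the windows, on the strand of the gene, 7.34% were. The TGF-β1 interval holds that share and the control interval lies just above it. The difference from it was not tested. All 157 control and 216 TGF-β1 positions in a window on the same strand had C at the end coordinate of the tables, and 18.6% and 16.7% had C at the coordinate before it. Positions are therefore printed as that end coordinate of hg38.

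Enzymes of central carbon metabolism had more listed positions after TGF-β1. The count was 72 in untreated and 142 in treated cells, which gives a ratio of 1.97 (1.49 to 2.62). Of the 42 listed enzymes, 26 (61.9%) had more positions, 10 (23.8%) fewer and 6 equal numbers, and the other 5 were in neither table. Over all 6112 listed genes 51.2% had more and 35.3% fewer. These shares include many genes with a lone position. Among genes with at least 3 listings over both tables, a limit chosen after seeing the data, 19 of 27 enzymes (70.4%) and 65.4% of all 2600 genes had more, and the ratios were 2.06 and 1.65. Among such genes the enzymes' share with more positions stood near the background, and no test of either difference from it was made. Transcript levels are not in these tables, so a higher mismatch share and deeper reading of a transcript cannot be told apart as sources of a further listed position, and in RNA of whole cultures neither can more cells with a transcript and more of it per cell.

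**Figure D1:**
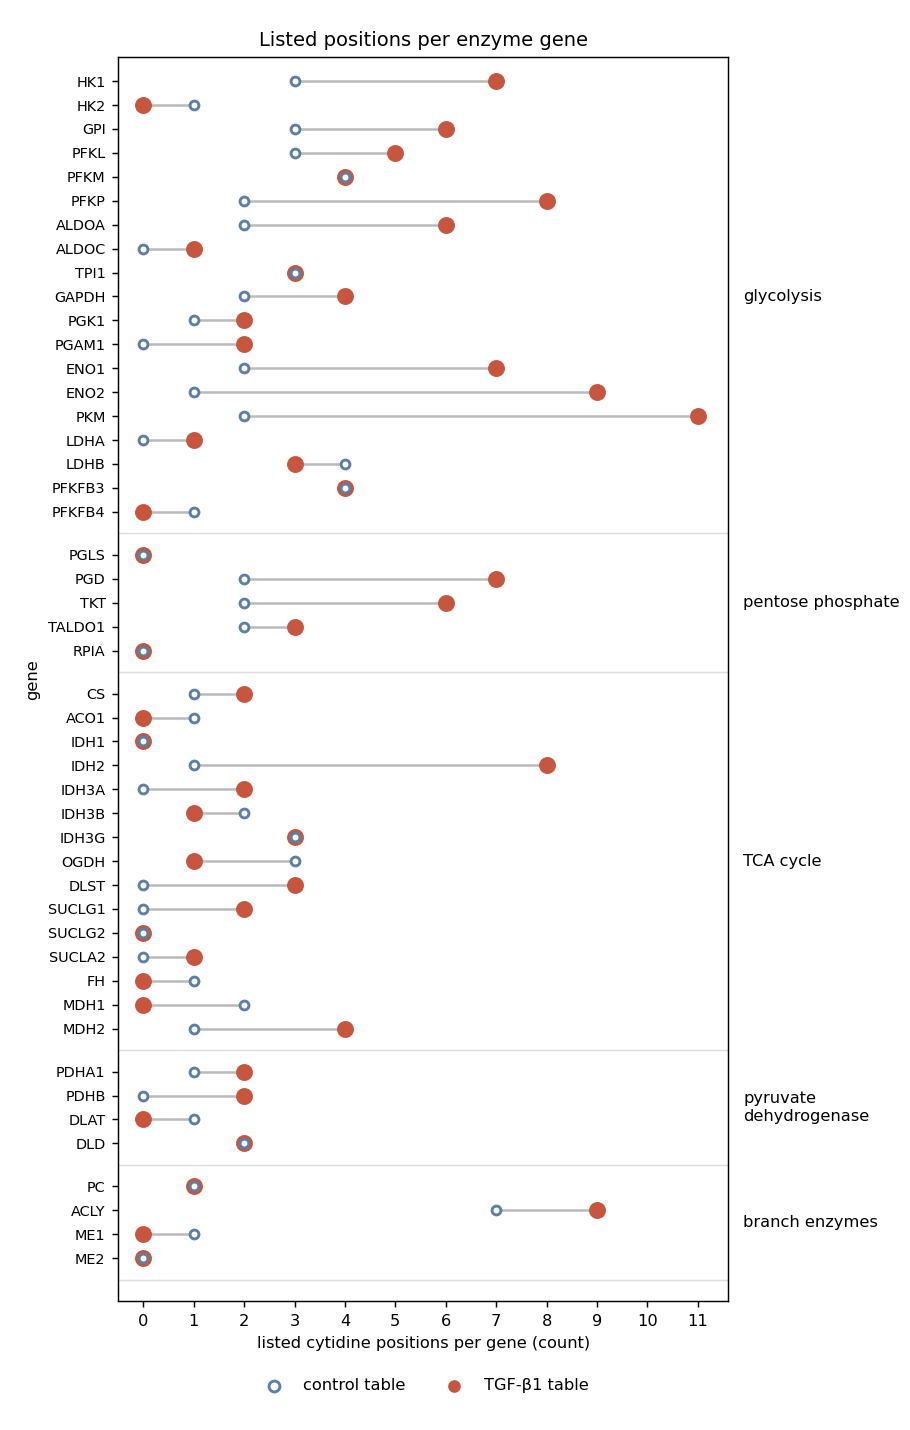
Listed cytidine positions per gene (x axis, count) for the 47 enzymes, grouped by pathway. Open circles are the control table and filled circles the TGF-β1 table, a filled ring around an open circle marks equal numbers, and PKM, ENO2, ACLY, IDH2 and PFKP reach 8 to 11 positions after TGF-β1.

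Glycolytic enzymes had 83 positions with TGF-β1 and 38 without it (ratio 2.18, 1.49 to 3.20). All 19 were listed, with more positions in 13, fewer in HK2, LDHB and PFKFB4, and equal numbers in PFKM, TPI1 and PFKFB3. The share with more was 51.2% over all listed genes and 65.4% over those with at least 3 listings. The 6 enzymes from GAPDH to PKM had 8 and 35 positions (4.38, 2.07 to 9.27). The 9 enzymes of the preparatory steps from hexokinase to TPI1 had 21 and 40 (1.90, 1.13 to 3.21). These intervals overlap, and the difference between the stages was not tested.

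Among enzymes of the preparatory steps, HK1, the hexokinase that phosphorylates glucose at the mitochondrial surface, had 3 control positions and 7 after TGF-β1, all coding. HK2, the inducible hexokinase, had 1 and 0. The control values of HK1 were 1.26%, 1.52% and 1.99%, and those after TGF-β1 ran from 2.36% to 5.35%. Each of the 7 values after TGF-β1 was thus above each control value. At the position in both tables, chromosome 10 position 69368570, HK1 had 1.26% and 2.57%, while the cytidine 4 bases on was listed in control alone at 1.52%. The position of HK2, chromosome 2 position 74881828, had 12.3% in control, among the highest of the pathway there.

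GPI, which turns glucose phosphate into fructose phosphate, had 3 and 6 positions. Its shared positions on chromosome 19 carried high levels in both groups, with 10.1% and 12.7% at 34396628 and 10.9% and 10.5% at 34399292. The former is also annotated to the overlapping gene ENSG00000266953, so its reads may come from either. The phosphofructokinases PFKL, PFKM and PFKP catalyse the committed step of glycolysis and together had 9 and 17 positions. PFKP, the platelet-type enzyme, accounted for most of the difference, with 2 and 8. Its control values were 1.92% and 3.83%, and its values after TGF-β1 were 2.28%, 3.40%, 10.8%, 4.21%, 8.67%, 2.29%, 5.40% and 15.3% in genomic order. The highest of these lay at chromosome 10 position 3134573. The shared PFKP position, 3118790, went the other way, with 3.83% and 2.29%. PFKL, the liver type, had 3 and 5 positions and shared 4.62% and 5.12% at chromosome 21 position 44316512 and 4.32% and 5.78% at 44318472. PFKM, the muscle type, had 4 and 4, of which 1 was shared, at chromosome 12 position 48132875 with 2.93% and 4.70%.

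ALDOA, the main aldolase of muscle and most cultured cells, had 2 and 6 positions. The shared ALDOA cytidines on chromosome 16 differed in opposite directions, with 6.77% and 3.59% at 30067283 and 3.99% and 5.40% at 30068892. Adjacent ALDOA cytidines, 30067492 and 30067493, were listed after TGF-β1 at nearly equal levels of 6.29% and 6.26%. ALDOC, the brain aldolase, had 0 and 1 (7.14%). TPI1, triosephosphate isomerase, had 3 and 3 positions and shared none. Its control positions were all coding, and its positions after TGF-β1 were 1 coding and 2 in the 3′UTR.

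Among the later steps, GAPDH, the dehydrogenase that makes the first high-energy phosphate, had 2 and 4 positions. Both control positions recurred at higher levels, with 4.24% and 6.32% at chromosome 12 position 6537110 and 2.22% and 3.08% at 6537848. At 6537110 the deposited p-value was 0.00561 in control and 4.03e-258 after TGF-β1. At 6537848, with a lower level, it was already 1.60e-176 in control, so level and p do not run in parallel within this gene. PGK1, which makes ATP from bisphosphoglycerate, had 1 and 2 positions and shared none. PGAM1, phosphoglycerate mutase, had 0 and 2, with 14.7% in the 5′UTR and 1.27% in coding sequence.

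Enolases, which form phosphoenolpyruvate, had 3 and 16 positions (ratio 5.33, 1.66 to 17.1). ENO1, the ubiquitous enolase, had 2 and 7. Its 5′UTR position, chromosome 1 position 8874886, was the highest glycolytic position after TGF-β1 and the highest shared one in either group, with 12.8% and 20.5%. A 3′UTR position of ENO1, 8861234, had 17.6% after TGF-β1 alone, and another, 8861305, had 2.45% in control alone. ENO2, the enolase of neurons and neuroendocrine cells, had 1 and 9. In genomic order on chromosome 12 its values after TGF-β1 were 3.98%, 2.71%, 8.49%, 2.13%, 3.64%, 17.8%, 11.8%, 8.88% and 5.88%. The shared one, 6921703, had 2.36% in control and 3.64% after TGF-β1. The highest, 6921747, stood 44 bases away and was listed after TGF-β1 alone. All but the last of these ENO2 positions were coding, and the last lay in the 3′UTR.

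PKM, the pyruvate kinase that closes glycolysis and is spliced into M1 and M2 forms, had 2 and 11 positions, the most of any enzyme after TGF-β1. Its levels after TGF-β1 were low. They ran from 1.77% to 4.63% with a median of 2.43%, below the median of 4.68% over all positions of that table. At the shared position, chromosome 15 position 72209854, both groups had nearly the same level, 2.54% and 2.57%. The cytidine 2 bases away, 72209852, was listed after TGF-β1 alone at 2.43%. The other control position, 72202894, lay in a noncoding exon with 10.3% and a deposited p of exactly 0. Positions 72202460 and 72202540, with 4.08% and 1.86%, are annotated to 3 transcripts each, while the remaining PKM positions after TGF-β1 are annotated to 7 to 16. Which spliced form those reads came from was not determined. The highest PKM value after TGF-β1, 4.63%, lay in the 5′UTR.

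Lactate dehydrogenases, which interconvert pyruvate and lactate, had 4 and 4 positions. LDHA, the muscle-type subunit, had 0 and 1 (3.20%). LDHB, the heart-type subunit, had 4 and 3. On chromosome 12 it had 10.1% and 11.4% at 21642076 and 1.41% and 2.78% at 21644055. Its coding positions are also annotated to the overlapping gene ENSG00000285854. PFKFB3 and PFKFB4, which set the level of an activator of phosphofructokinase, had 5 and 4 positions in all. PFKFB3 had 4 and 4 and shared chromosome 10 position 6221443, with 3.35% and 3.04%. Its other positions after TGF-β1 had 4.16%, 11.2% and 12.7%, and its other control positions had 1.98%, 2.42% and 3.32%. PFKFB4 had 1 control position, in the 3′UTR with 13.4%, the highest glycolytic value in control, and a deposited p of exactly 0.

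**Figure D2:**
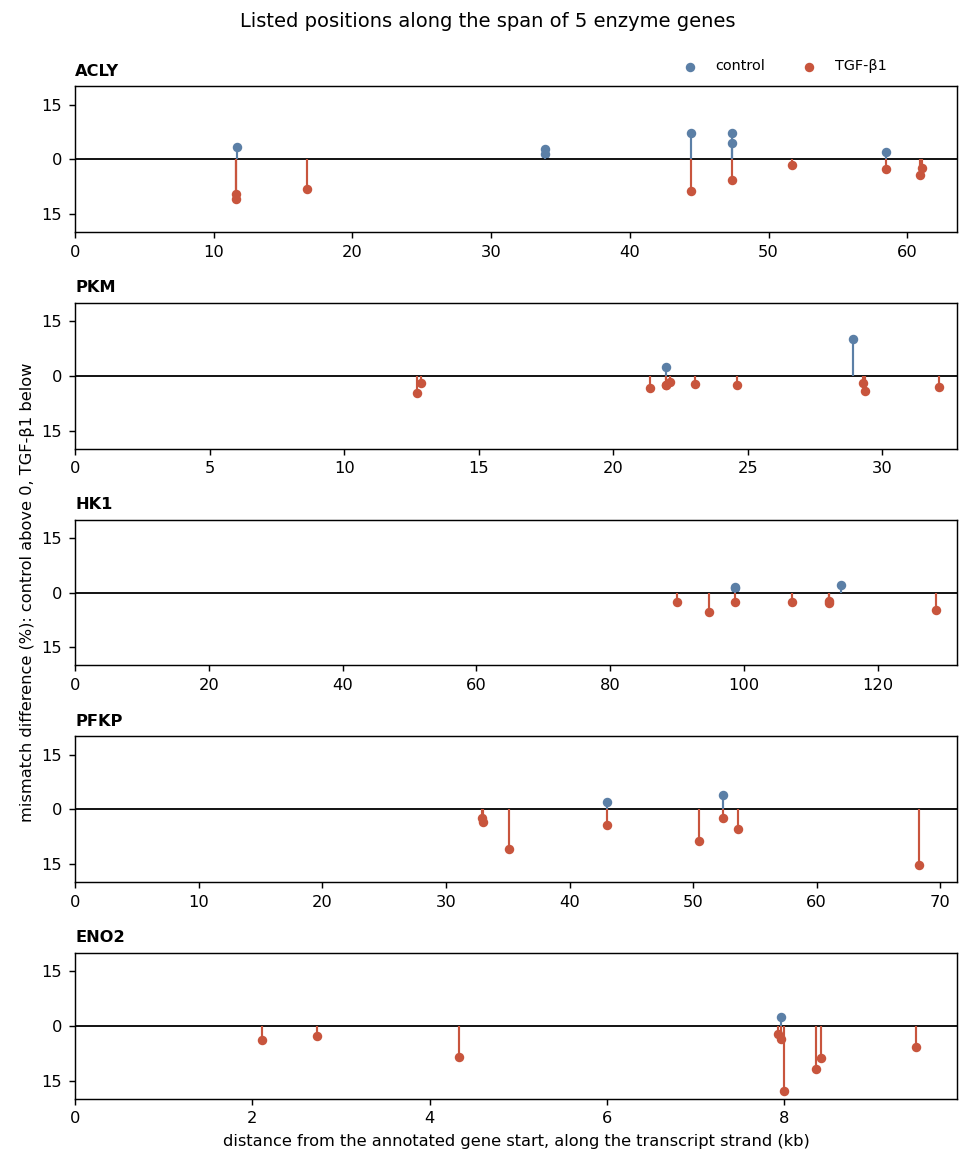
Listed positions along ACLY, PKM, HK1, PFKP and ENO2, the enzymes with most listings over both tables. The x axis is the distance in kb from the annotated gene start along the transcript strand, introns included, and the y axis the mismatch difference in percent, drawn upward for control and downward for TGF-β1. PKM carries 11 low values after TGF-β1, and ENO2 and PFKP reach 17.8% and 15.3%.

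Pentose phosphate enzymes had 6 control positions and 16 with TGF-β1 (ratio 2.67, 1.08 to 6.60), all in coding sequence and all from 3 genes. The interval of this ratio holds the 1.46 over all genes. PGLS, the lactonase, and RPIA, the ribose phosphate isomerase, were in neither table. PGD, the phosphogluconate dehydrogenase that makes NADPH, had 2 and 7, TKT, transketolase, 2 and 6, and TALDO1, transaldolase, 2 and 3. Of 4 shared positions 3 were higher after TGF-β1. TALDO1 had 2.96% and 5.62% at chromosome 11 position 755995 and 1.79% and 3.88% at 764829. TKT had 2.91% and 4.99% at chromosome 3 position 53228279. PGD had 1.97% and 1.47% at chromosome 1 position 10413178, and 2 bases away 10413180 was listed after TGF-β1 alone at 6.11%. That was the highest value of the pathway after TGF-β1, followed by 5.998% and 5.996% at 10404258 and 10411462 of PGD. The highest in control was 6.94% at 10417389, also in PGD. No position of the pathway reached 10% in either group.

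For TCA cycle enzymes 15 positions stood in the control table and 27 in the other (ratio 1.80, 0.967 to 3.35). The interval holds equal numbers and also the 1.46 over all genes. Of the 15 genes 7 had more, 5 fewer, IDH3G equal numbers, and IDH1 and SUCLG2 were in neither table. Among all listed genes 51.2% had more and 35.3% fewer. IDH2, the mitochondrial NADP-dependent isocitrate dehydrogenase, had 1 and 8 positions. Without it the cycle had 14 and 19 (1.36, 0.689 to 2.67). The 3 cytosolic enzymes counted here, ACO1, IDH1 and MDH1, had 3 and 0 positions (interval of the ratio 0 to 1.28), with none in IDH1. The mitochondrial ones, IDH2 among them, had 12 and 27 (2.25, 1.15 to 4.39). The 1.46 over all genes lies within the latter interval and above the former. The difference between cytosolic and mitochondrial enzymes was not tested. MDH1, the cytosolic malate dehydrogenase, had 2 and 0, and its mitochondrial counterpart MDH2 had 1 and 4. ACO1, cytosolic aconitase and iron regulatory protein, had 1 and 0.

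IDH2 held the highest value of any enzyme here, 23.2% at chromosome 15 position 90084203 in the 3′UTR, after TGF-β1 alone. The cytidine 2 bases away, 90084201, had 8.53%, and both had a deposited p of exactly 0. Its other positions after TGF-β1 were coding and had 2.24%, 9.75%, 5.42%, 5.45%, 2.17% and 6.13%. The shared one, 90085298, had 3.46% in control and 5.45% after TGF-β1. IDH3A, IDH3B and IDH3G form the NAD-dependent isocitrate dehydrogenase and had 5 and 6 positions together. IDH3G had 3 and 3, with 4.60% and 12.4% at the shared X chromosome position 153786871, the largest difference of any enzyme at 7.79 points. At 153788119 it had 22.0% after TGF-β1 alone. IDH3A had 0 and 2 (4.30% and 13.0%), and IDH3B had 2 and 1 (3.33% and 9.73% in control, 4.89% at another cytidine after TGF-β1).

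OGDH, the dehydrogenase component of the oxoglutarate complex, had 3 and 1 positions, and DLST, its succinyltransferase, had 0 and 3. The OGDH control values were 9.88%, 8.30% and 6.18%, the highest and the third highest of the cycle in control among them. The one that recurred, chromosome 7 position 44681842, had 8.30% and 12.2%. DLST had 6.66% in coding sequence and 2.81% and 14.9% in the 3′UTR. Subunits of succinyl-CoA synthetase were listed after TGF-β1 alone, SUCLG1 with 2 positions and SUCLA2 with 1. FH, fumarase, had 1 and 0. CS, citrate synthase, had 1 and 2 and shared none. MDH2 had 1.31% and 7.02% at chromosome 7 position 76064907, the largest ratio at a shared enzyme position (log2 ratio 2.43), and 10.6% at 76064409 after TGF-β1 alone.

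Pyruvate dehydrogenase subunits had 4 and 6 positions (ratio 1.50, 0.455 to 4.95) and shared none. PDHA1, the catalytic alpha subunit, had 1.44% at X chromosome position 19359538 in control and 8.42% at the adjacent cytidine 19359539 after TGF-β1, and 1.47% at a further one. PDHB, the beta subunit, had 0 and 2, at 12.8% in coding sequence and at the 5′UTR cytidine printed above. DLD, the shared dihydrolipoamide dehydrogenase, had 2 and 2, and DLAT, the acetyltransferase, 1 and 0. Of the branch enzymes, ACLY, which splits exported citrate for lipid synthesis and histone acetylation, had 7 and 9 positions, the most of any enzyme over both tables. Its shared cytidines on chromosome 17 were all higher after TGF-β1. They had 2.04% and 2.68% at 41872035, 4.42% and 5.60% at 41883203 and 7.28% and 8.82% at 41886158. Its other control positions had 7.12%, 2.92%, 1.50% and, in the 5′UTR, 3.48%. Its other positions after TGF-β1 had 2.31%, 4.23%, 1.59%, 8.27% and, in the 5′UTR, 10.8% and 9.55%. The 5′UTR cytidines of ACLY differed between the tables, with 41918887 in control and 41918920 and 41918957 after TGF-β1. PC, pyruvate carboxylase, had 1 position in both tables, chromosome 11 position 66850037, with 10.4% and 5.36%, the largest downward difference of any enzyme. ME1, the cytosolic malic enzyme, had 1 and 0, and ME2 was in neither table.

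At cytidines in both tables, levels of these enzymes were mostly higher after TGF-β1, as at other genes. Of 29 shared positions in 21 genes, 23 were higher (79.3%, 61.6 to 90.2) and 6 lower, against 78.1% higher over all 2038 shared positions. The median difference was 1.37 points for the enzymes and 1.70 for all, and the median log2 ratio 0.44 and 0.58. A difference of over 5 points upward was present at 3 of the 29, in ENO1, IDH3G and MDH2, and at 20.7% of all shared positions. The 6 lower ones were in GPI, PFKP, ALDOA, PFKFB3, PGD and PC. By pathway 13 of 17 glycolytic, 3 of 4 pentose phosphate, 4 of 4 TCA cycle and 3 of 4 branch positions were higher. The medians of the differences were 1.31, 2.09, 4.80 and 0.91 points, and with 4 positions in most groups their order was not tested. Of the enzymes, 29 of the 72 control positions (40.3%) were in the TGF-β1 table, beside 24.6% over all genes, and the difference between these shares was not tested. As a share of the TGF-β1 positions the overlap was 20.4% for the enzymes and 16.9% over all genes.

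**Figure D3:**
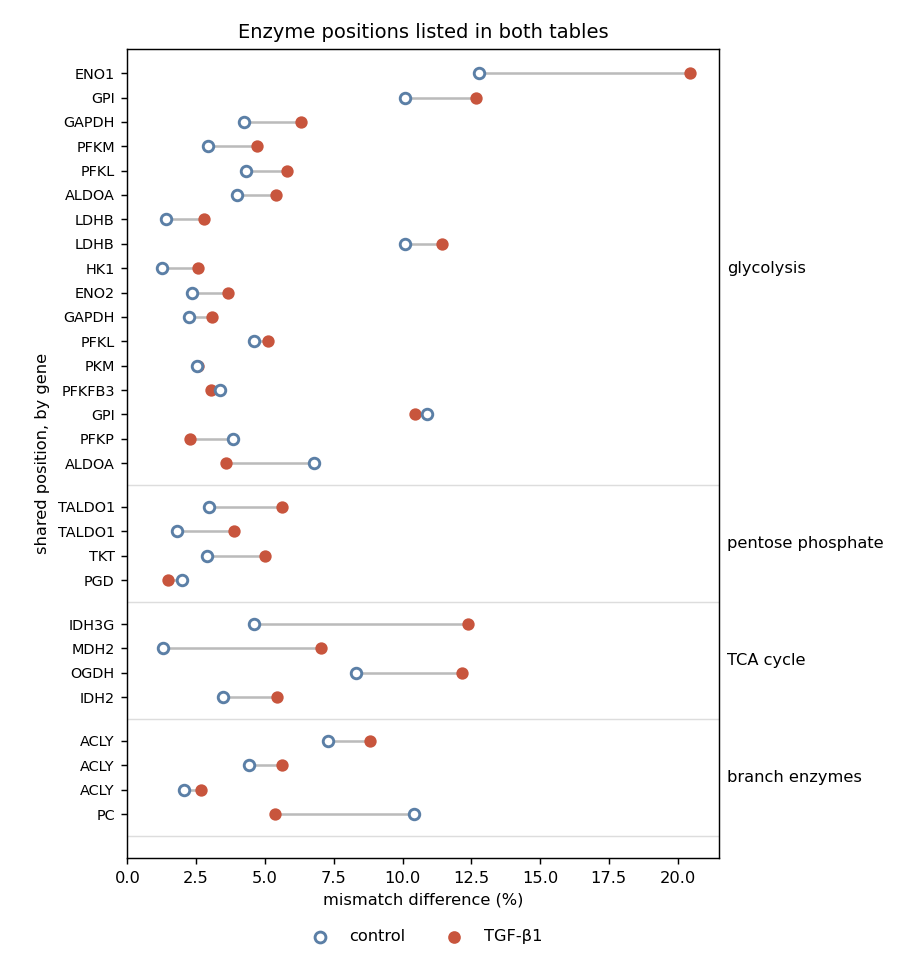
Mismatch difference in percent (x axis) at the 29 enzyme positions in both tables, by gene and pathway and ordered by difference within a pathway. Open circles are control and filled circles TGF-β1, and 23 of 29 filled circles lie to the right, the widest gaps being those of IDH3G and ENO1.

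Levels were also compared over all listed positions, without a test between pathways. Glycolysis had medians of 3.33% (control) and 3.64% (TGF-β1). The medians were 2.44% and 3.65% in the pentose phosphate pathway and 4.60% and 5.45% in the TCA cycle, beside 4.04% and 4.68% over all genes. Positions of at least 10% made up 8 of the 72 control positions of the enzymes (11.1%) and 22 of the 142 with TGF-β1 (15.5%), against 12.3% and 18.4% over all genes. Glycolysis had 7 of 38 and 12 of 83 such positions, a lower share after TGF-β1. The TCA cycle had 0 of 15 in control, which allows a share of up to 20% (3 counts of the total, not a Wilson limit), and 7 of 27 after TGF-β1 (25.9%). They were in IDH2, IDH3A, IDH3G, OGDH, DLST and MDH2. The pentose phosphate pathway had 0 of 16 after TGF-β1, which by the same floor of 3 counts allows up to 18.8%.

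**Figure D4:**
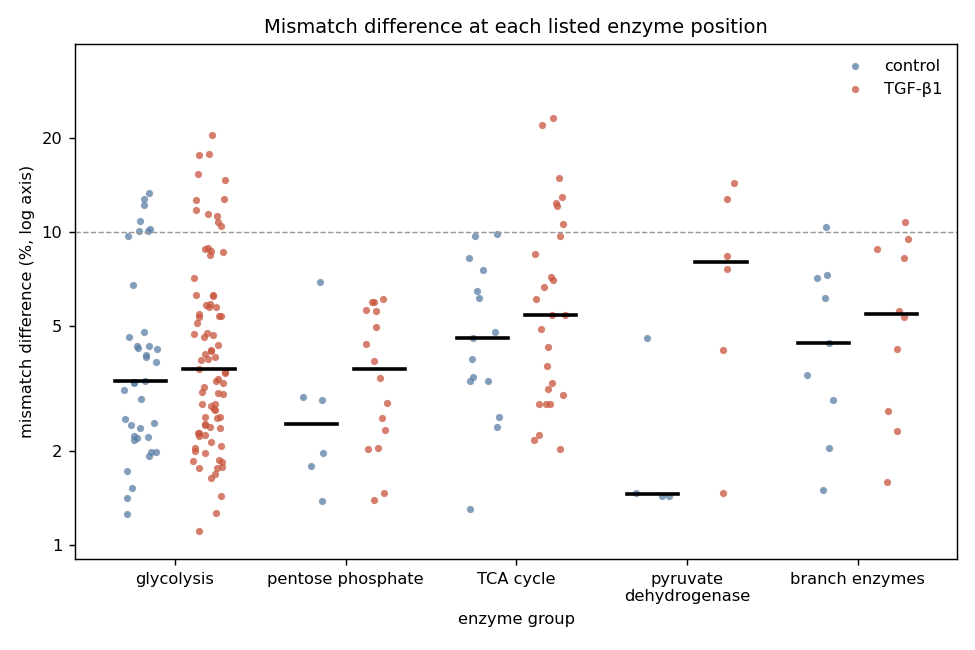
Mismatch difference of every listed enzyme position (y axis, percent, log scale) by enzyme group, with control and TGF-β1 side by side. Bars are medians and the dashed line marks 10%, above which the TCA cycle has 7 positions after TGF-β1 and none in control.

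Most enzyme positions were coding. Coding sequence held 63 of 72 control positions (87.5%, 77.9 to 93.3) and 120 of 142 TGF-β1 positions (84.5%, 77.7 to 89.5), against 74.7% and 76.4% over all genes. The 3′UTR held 4 and 13. In the TCA cycle all 15 control positions were coding, and the interval for 0 of 15 in 3′UTRs was 0 to 20.4%. After TGF-β1 6 of 27 lay in 3′UTRs (22.2%, 10.6 to 40.8), in IDH2, DLST, SUCLG1 and CS. Both intervals hold the 3′UTR share over all genes in their group. Of the 6 enzyme positions after TGF-β1 with a deposited p of exactly 0, 5 were in 3′UTRs. The control table had 3 such enzyme positions, 1 of them in a 3′UTR. The 3′UTR share of such positions over all genes was not counted. The share of listed cytidines with a close neighbour was near that of all genes. In the tables together, 28 of the 185 positions (15.1%) had another within 5 bases in the same gene, beside 13.8% over all genes. Of the 14 such pairs of neighbours, 8 were 2 bases apart and 4 adjacent, while over all genes 24.1% of 1303 pairs were 2 bases apart. The 2-base pairs were in PFKM, PKM, LDHB, PGD, MDH2, ACLY and, at 2 places, IDH2.

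Related enzymes, carriers and regulators outside the 47 were followed in a list of 64 genes. Of these 22 were listed, 11 with more positions after TGF-β1, 8 with fewer and 3 with equal numbers (21 and 46 positions, ratio 2.19, 1.31 to 3.65). These counts stood near the shares over all listed genes, 51.2% with more and 35.3% with fewer. The interval of the ratio also holds the 1.46 over all genes. Carriers of sugar, lactate and other metabolites had 7 and 20. SLC16A3, the lactate exporter, had 1 and 6, reaching 29.9%, and SLC2A1, the glucose transporter, 1 and 5. Enzymes that link glutamate and aspartate to the cycle were listed after TGF-β1 alone, with 9 positions in GPT2, GOT2, GLUD1 and GOT1. SDHA, the succinate dehydrogenase flavoprotein, had 1 and 10 positions and shared none. H6PD, an enzyme of the endoplasmic reticulum that makes NADPH, and the ribose phosphate pyrophosphokinases PRPS1 and PRPS2 went the other way, with 1 and 0 each. The pyruvate dehydrogenase regulators PDK3 and PDPR had 1 and 0 each.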

How the data were processed

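Libraries, 2 per group, were made from polyadenylated RNA of LX-2 cells captured on beads, per the labels' protocols. The submitters' processing notes name fastp 0.23.1, STAR 2.7.6a, featureCounts and build hg38, with no role or order. Not given in the sources used here are the caller, its filters, the subtraction behind the difference and the pooling of libraries. Each group has 1 table that the authors deposited, told apart by file name, with a mismatch difference as a fraction (from 0.01 up) and a p-value (below 0.05) per position, per the file headers. Whether the p-value was adjusted is not stated.

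Lines were merged to 1 per position and gene with pandas 2.3.3, fractions turned into percent, and positions matched by chromosome, base and strand. Wilson intervals came from scipy 1.17.1, and ratio intervals from those of the TGF-β1 share. The counting was tested on simulated data. No test between groups was possible with 1 value each. Members, pathway lists and tests were chosen with earlier results of these data known. Every member is accounted for. Levels are given for all shared positions, the 3 highest per pathway and group in glycolysis, the pentose phosphate pathway and the TCA cycle, and all positions of the members with most listings. The rank for the third such member was tied, so 5 are given. Other positions named were chosen after their values were seen. Alternatives were stricter limits on level or p, fewer positions or members, and equal list lengths. Promoter sequences and gene names came from RefSeq tables (GRCh38.p14), in which all 47 names were found. Values of some related genes are not reported here.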

Additional observations from a re-analysis of the deposited data

How the results depend on the processing

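The ratio of listed positions for all 47 enzymes, glycolysis, the pentose phosphate pathway and the TCA cycle, the count of enzymes with more positions and the share of shared positions that were higher were recomputed under 45 alternatives in all. None reversed, and 41 values stayed within the interval or within 1.5 times the count reported. Some of the 41 could not move, because the alternative removed none of the positions counted. For the pentose phosphate pathway these were coding sequence only, without p of exactly 0 and without positions annotated to several genes. A wide interval, such as that of this pathway, also leaves most values inside it. With only positions of at least 5% the ratio was 3.0 for all enzymes and 3.33 for glycolysis, beside 1.75 over all genes. With only deposited p-values below 0.001 it was 2.82 for all enzymes and 4.0 for the TCA cycle, beside 1.77 over all genes. Ratios ran from 1.53 to 3.0 for all enzymes, from 1.74 to 3.33 for glycolysis, from 2.0 to 5.0 for the pentose phosphate pathway and from 1.33 to 4.0 for the TCA cycle. One alternative kept as many TGF-β1 positions, by lowest p, as control had. The control list was left whole, so the limit on p then differed between the lists. There, 22 enzymes had more positions and 17 fewer, beside 39.0% of all genes with more. The ratio for all enzymes was 1.53 beside 1.00 over all genes. For the TCA cycle that ratio was 1.33, with an interval of 0.691 to 2.57. For the pentose phosphate pathway the interval held equal numbers with that choice (2.0, 0.778 to 5.14), without PGD (2.25, 0.735 to 6.89) and at 5% or more (5.0, 0.775 to 32.3). No paired analysis was possible because the tables give 1 value per group and none per library, and for the same reason no library could be left out and the minimum of 20 reads could not be applied. Depth is unknown, so a position missing from a table has no value.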

Other observations

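Pseudogenes of glycolytic enzymes were also listed. Genes named as pseudogenes of GAPDH, PKM and TPI1 held 4 positions in control and 10 after TGF-β1, in 7 genes. Reads of such copies and of their parents can be hard to tell apart, and the part of this in the values of GAPDH, PKM and TPI1 was not tested. TPI1P1 had 2 and 2 positions at different cytidines. On chromosome 1 these were 76700028 (3.43%) and 76700243 (4.68%) in control and 76700030 (3.05%) and 76700241 (2.66%) after TGF-β1, so each was 2 bases from a position of the other table. GAPDHP65 had 13.0% and 12.5% in control and 3.04% and 1.49% at other cytidines after TGF-β1. PKMP1 had 2 and PKMP5 had 1 position after TGF-β1, all with a deposited p of exactly 0. Over all pseudogene positions 7 of 14 had such a p.

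In PDHA1 a cytidine listed in control alone stood next to one listed after TGF-β1 alone. These adjacent cytidines had 1.44% in control and 8.42% after TGF-β1. In ACLY, 41883202 on chromosome 17 had 7.12% in control alone, while its neighbour 41883203 was in both tables with 4.42% and 5.60%.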
